A study of Mus musculus with 15 samples.

Results

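The genes Tmem139, Csprs, Nat8f2, Dcaf12l1, Chrnb1, Tceal9 and Tnk1, all little studied in the mammary gland, were followed in mammary glands of BALB-neuT mice from week 10 to week 22. They are 7 of the 311 genes that could be named on the array, and they were read by 8 probes, because Tnk1 has 2. The probes were found by matching their RefSeq accession, without its version, to these symbols. Csprs lies on mouse chromosome 1, Tmem139 and Nat8f2 on 6, Chrnb1 and Tnk1 on 11, and Dcaf12l1 and Tceal9 on X. The genes had been selected on these same arrays, chosen by a higher normalised signal in late than in early glands, so that rise is described here without a test. The step from week 15 to 19 belongs to that rise and is described only. The steps from week 10 to 15 and from week 19 to 22 lie within the early and the late ages, and these were tested. The choice used the same arrays, so these steps may not be wholly free of it.

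The study hybridised total RNA from whole-mounted mammary glands of 15 such mice, 1 animal for each array per the series design. The groups were 5 mice aged 10 weeks, 2 aged 15 weeks, 4 aged 19 weeks and 4 aged 22 weeks. In the BALB-neuT strain a mutant, active form of the rat HER-2/neu gene is driven by the mouse mammary tumour virus promoter, and mammary glands pass from hyperplasia to carcinoma with age. Every group carried the transgene and no mice without it were analysed here, so ageing of the normal gland and tumour progression cannot be told apart. In the text, weeks 10 and 15 are called early and weeks 19 and 22 late.

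HER-2/neu is a receptor tyrosine kinase whose activation drives growth of ductal and lobular epithelium, while the tissue around it gains leukocytes and loses fat. A whole gland holds epithelium, fat, vessels, connective tissue, lymphoid cells and often some skin and muscle, and an array signal sums over all of them. More cells of a type and more RNA per cell therefore cannot be told apart in any value below. The 7 genes are not known to share a pathway. They encode membrane proteins (Tmem139, Chrnb1), an enzyme of the N-acetyltransferase 8 family (Nat8f2), a WD repeat protein (Dcaf12l1), a small X-linked protein of the TCEAL and BEX family (Tceal9), a tyrosine kinase (Tnk1) and a product of an amplified region on mouse chromosome 1 (Csprs).

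Above background means here that the signal of a probe reached 3 times its noise on that array, and arrays had between 46.1% and 53.9% of such probes. Levels are log2 signals after quantile normalization between arrays, and differences are in log2 units, where 1 unit is a 2-fold change. A difference is given ± SE from 1 limma fit over all 15 arrays. The fit took in 20867 probes, those above background on no fewer than 50% of the arrays of some age, all 8 probes of the 7 genes among them. Nat8f2 entered through its late arrays alone, and Dcaf12l1 through weeks 10, 19 and 22. Levels of different probes are not comparable, so each gene is set only against itself. The number of mice limits the precision, most of all at week 15.

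All 8 probes were higher in late than in early glands. The difference ranged from 1.23 for the first Tnk1 probe to 1.88 for Dcaf12l1, with a median of 1.51, where the median of all 20867 probes was -0.04. The fitted difference was at least 2-fold for 8 of the 8 probes and for 9.15% of all probes, but that of Nat8f2 rests on early arrays below background and was 0.49 with such values set to a floor, the 95th percentile of the values below background on each array. For 5 of the 8 probes, those of Tmem139, Csprs, Nat8f2, Chrnb1 and Tceal9, each of the 8 late arrays lay above each of the 7 early arrays, against 4.67% of all probes. With values below background at that floor the count was 4. These shares only describe the genes, since this contrast chose them.

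**Figure D1:**
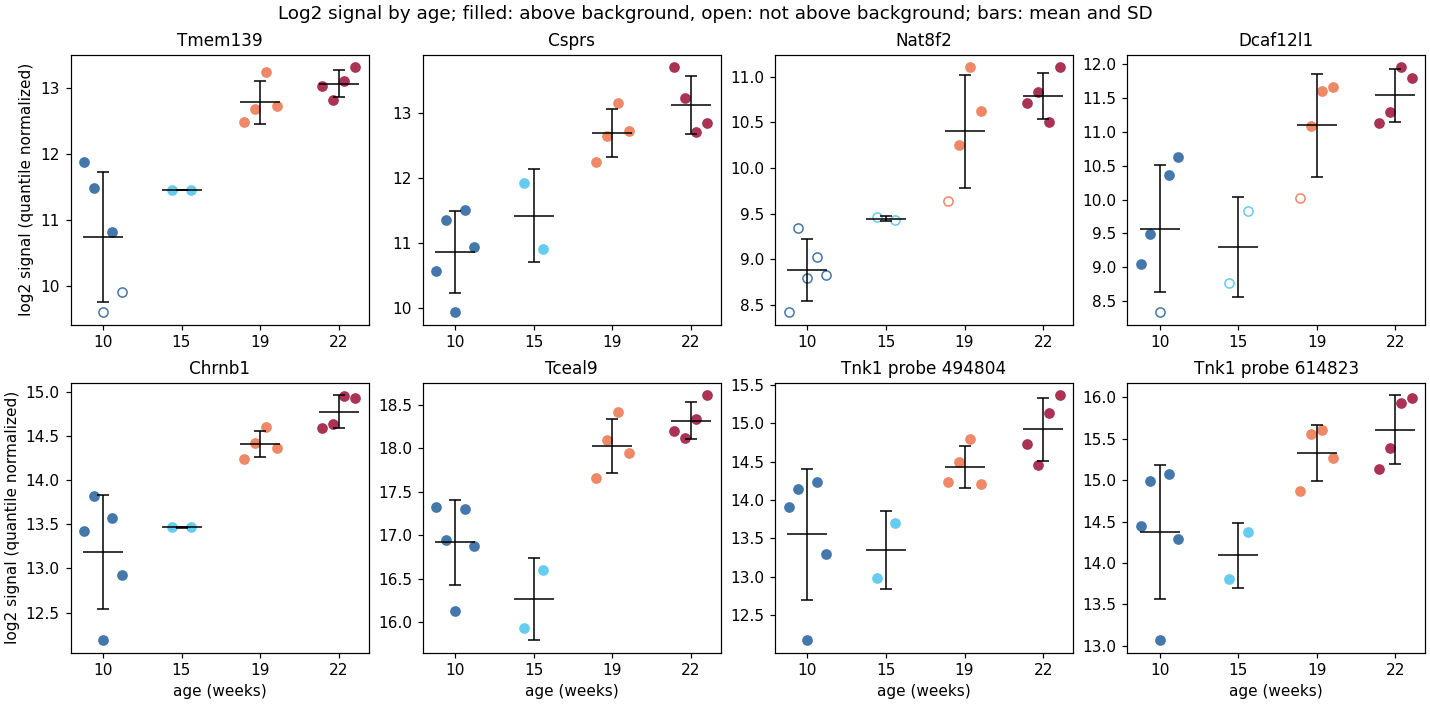
Log2 signal of each probe (vertical axes, quantile normalized, a scale of its own in each panel) in every array by age in weeks (horizontal axes). Filled points are above background, open points are not, and bars give mean and SD over 5, 2, 4 and 4 mice; in Tmem139, Csprs, Nat8f2, Chrnb1 and Tceal9 the 8 late points lie above all 7 early points.

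Tmem139 (NM_175408.2) encodes a small membrane protein that in human kidney cells binds the anion exchanger AE1. Its log2 signal in week 10 replicates 1 to 5 was 11.88, 11.49, 9.60, 10.83 and 9.91. It was 11.45 in both week 15 mice. At week 19 it was 12.48, 12.67, 13.24 and 12.72, and at week 22 it was 13.03, 12.82, 13.09 and 13.31. The late glands formed a narrow range, while the week 10 glands were spread over more than 2 units. Tmem139 was above background on 13 of 15 arrays, missing only week 10 replicates 3 and 5. Its late glands stood 1.82 ± 0.32 above the early ones, a 3.54-fold difference (95% interval 2.19 to 5.72). The means stood in the order of weeks 10, 15, 19 and 22, but the ranges of weeks 10 and 15 overlapped, as did those of weeks 19 and 22.

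Chrnb1 (NM_009601.3) encodes the beta 1 subunit of the acetylcholine receptor of the neuromuscular junction. It was above background on all 15 arrays. Its log2 signal was 13.42, 13.82, 12.18, 13.57 and 12.92 at week 10, and 13.47 and 13.46 at week 15. It was 14.24, 14.42, 14.60 and 14.37 at week 19, and 14.59, 14.64, 14.95 and 14.93 at week 22. No late gland fell below 14.24 and no early gland reached above 13.82. The late glands stood 1.27 ± 0.22 above the early ones, a 2.41-fold difference (95% interval 1.73 to 3.35). Of 16 skeletal muscle genes and 20 other genes of nicotinic receptors and the endplate on fixed lists, 0 could be named on the array, so whether muscle RNA moved with Chrnb1 was not tested.

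Nat8f2 (NM_053096.2), known earlier as Cml2, is a mouse relative of NAT8, which in human cells acetylates cysteine conjugates at the endoplasmic reticulum. It was above background on 7 of the 15 arrays, all of them late. The early log2 signals, none above background, were 8.42, 9.34, 8.79, 9.02 and 8.83 at week 10 and 9.47 and 9.43 at week 15. At week 19 it was 9.63, 10.26, 11.10 and 10.62, with replicate 1 still below background at a signal-to-noise ratio of 2.0. All 4 week 22 arrays were above background, at 10.71, 10.83, 10.50 and 11.10. The late glands stood 1.43 ± 0.22 above the early ones, but the early values give a ceiling and not a level, and the lowest late value cleared the highest early value by only 0.17, with both of them below background. No fold is given for Nat8f2, since neither early age was measured above background. With every value below background at the floor, the late glands stood only 0.49 above the early ones.

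Dcaf12l1 (NM_178739.3) is an X-linked relative of DCAF12, a WD repeat protein that brings substrates to the CUL4-DDB1 ubiquitin ligase in human cells. Its log2 signal at week 10 was 9.05, 9.49, 8.33, 10.37 and 10.63, above background on 4 of 5 arrays. Neither week 15 array was above background, at 8.77 and 9.83. At week 19 it was 10.02, 11.09, 11.60 and 11.66, with replicate 1 below background, and at week 22 it was 11.14, 11.30, 11.96 and 11.79 on 4 arrays above background. Week 19 replicate 1 lay below 2 of the week 10 arrays, so the late and early ranges overlapped. The late glands stood 1.88 ± 0.39 above the early ones, a 3.69-fold difference (95% interval 2.07 to 6.57). That fold takes in 4 arrays below background, and the difference was 1.25 in place of 1.88 with such values at the floor. Both week 15 values lie below background, so no fold against that age is given.

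Its relative Dcaf12l2 was the only one of 17 other genes of DCAF proteins and the CUL4 ligase that could be named. It was above background on 1 of 5 arrays at week 10, 0 of 2 at week 15, 2 of 4 at week 19 and 1 of 4 at week 22. Its mean log2 signal was 9.60 ± 1.02 (SD, n = 5) at week 10 and 8.95 ± 1.11 (SD, n = 4) at week 22. Most of these values lie at the background of the array and give no level for Dcaf12l2. Of 9 other Nat8 genes, 11 other TCEAL and BEX genes, 7 genes of ACK kinases and their partners and 5 Sp100 genes, 0 could be named.

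**Figure D2:**
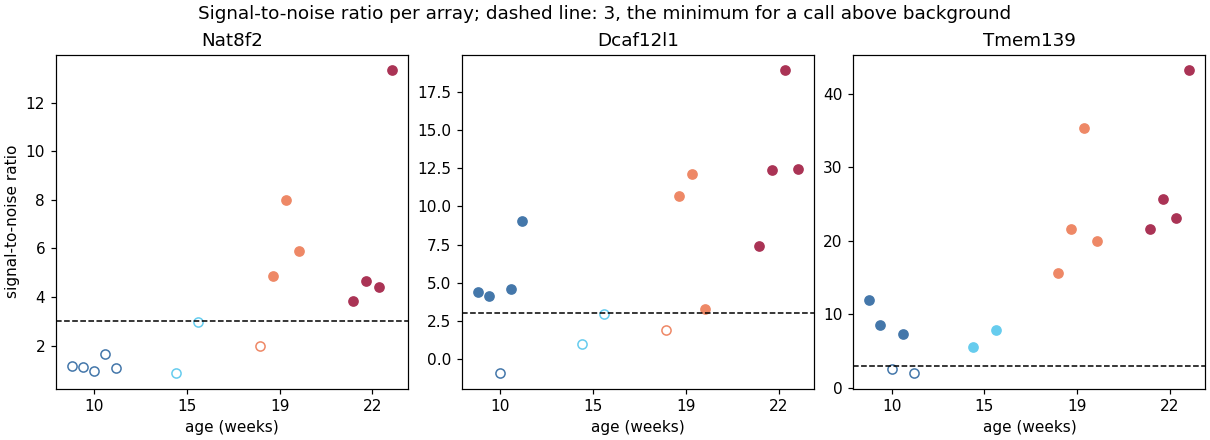
Signal-to-noise ratio (vertical axes) on every array for Nat8f2, Dcaf12l1 and Tmem139 by age in weeks (horizontal axes), with a dashed line at 3. Filled points count as above background; Nat8f2 has 0 of 7 early points above the line, Dcaf12l1 has 4 and Tmem139 has 5.

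Csprs (NM_033616.2) stands for component of Sp100-rs and lies in an amplified region of mouse chromosome 1 that holds near-identical copies, so its signal cannot be assigned to a particular copy. It was above background on all 15 arrays. Its log2 signal at week 10 was 10.57, 11.35, 9.92, 11.51 and 10.93, and at week 15 it was 11.92 and 10.91. At week 19 it was 12.25, 12.64, 13.16 and 12.73, and at week 22 it was 13.71, 13.24, 12.72 and 12.84. Week 15 replicate 1 was higher than every week 10 array, and week 22 replicate 1 was the highest of all. The late glands stood 1.78 ± 0.28 above the early ones, a 3.43-fold difference (95% interval 2.25 to 5.21).

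Tceal9 (NM_011712.1), known earlier as Wbp5 for binding WW domains, was bright on all 15 arrays, with signal-to-noise ratios from 53.3 to 93.9. Its log2 signal was 17.33, 16.95, 16.13, 17.31 and 16.88 at week 10. It was 15.93 and 16.60 at week 15, where its mean was the lowest of the 4 ages. At week 19 it was 17.66, 18.10, 18.41 and 17.94, and at week 22 it was 18.20, 18.12, 18.34 and 18.61. Week 15 replicate 1 held the lowest value of the 15, although the ranges of weeks 10 and 15 overlapped. The late glands stood 1.58 ± 0.21 above the early ones, a 2.99-fold difference (95% interval 2.19 to 4.09).

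Tnk1 (NM_031880.2) encodes a non-receptor tyrosine kinase of the ACK family, and its 2 probes, 494804 and 614823, were above background on all 15 arrays. Probe 494804 read 13.91, 14.15, 12.17, 14.24 and 13.29 at week 10 and 12.99 and 13.71 at week 15. It read 14.24, 14.50, 14.79 and 14.20 at week 19 and 14.73, 14.45, 15.14 and 15.37 at week 22. The early and late ranges met, with the highest week 10 value 0.034 above the lowest week 19 value. Probe 614823 ran from 13.07 to 15.07 at week 10, from 13.81 to 14.37 at week 15, from 14.87 to 15.60 at week 19 and from 15.13 to 15.99 at week 22. Both probes gave nearly the same rise from early to late glands, 1.23 ± 0.31 and 1.23 ± 0.30. With each probe centred on its own mean, they differed by a root mean square of 0.18 over the 15 arrays, which shows how far 2 probes of 1 transcript part on the same RNA.

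On the values as normalized, the greatest step of each probe lay between weeks 15 and 19. For each of the 8 probes this step was above 0 and was greater than the step before it and the step after it, a pattern that 38.2% of all probes showed. The late-to-early difference takes in this step in full and the steps around it only in part. The choice of the genes therefore favoured this pattern, and the share is not that of probes with such a rise. All 4 week 19 arrays lay above both week 15 arrays for each of the 8 probes, against 18.8% of all probes. Against week 10, all 4 week 19 arrays lay above all 5 for 5 of the 8 probes (9.37% of all probes), and all 4 week 22 arrays for 8 of 8 (10.0%). The step from week 15 to 19 was 1.80 ± 0.61 for Dcaf12l1, 1.76 ± 0.33 for Tceal9, 1.33 ± 0.51 for Tmem139 and 1.28 ± 0.44 for Csprs. It was 1.09 ± 0.49 and 1.23 ± 0.47 for the Tnk1 probes, 0.96 ± 0.35 for Nat8f2 and 0.94 ± 0.35 for Chrnb1. With values below background at the floor, the step was 0.27 for Nat8f2 and 0.87 for Dcaf12l1. The step from week 15 to 19 was then the greatest for 7 of the 8 probes, since Nat8f2 differed by 0.29 from week 19 to 22. For Tceal9 alone among the 8 probes, the 95% interval of this step (1.05 to 2.47) met neither that of the step before it nor that of the step after it. This step is part of the rise for which the genes were picked and was not tested. Its intervals, that of Tceal9 included, therefore only describe these arrays. Successive steps share an age, so a low week 15 value makes the step before it smaller and the step after it greater.

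The placing of the step was less certain for Csprs, Nat8f2 and Tmem139. In some settings another step also came close to it for Chrnb1 and Dcaf12l1. The array headers carried 2 dates, called scan days 1 and 2 here. Day 1 held week 15 replicate 1 and replicate 1 of weeks 19 and 22. Within day 1, Csprs differed by 1.08 from week 10 to 15, by 0.32 from week 15 to 19 and by 1.47 from week 19 to 22. Nat8f2 likewise differed by 0.17 from week 15 to 19 and by 1.08 from week 19 to 22. Within day 2, their steps from week 15 to 19 were 1.94 and 1.23, and those from week 19 to 22 were 0.09 and 0.15. The day 1 values rest on 1 mouse each at weeks 15, 19 and 22. Without week 15 replicate 2 the step of Csprs from week 10 to 15 was 1.07 and that from week 15 to 19 was 0.77. Tmem139 differed by 1.54 from week 10 to 15 and by 1.43 from week 15 to 19 within day 2, which held 1 week 10 mouse. Chrnb1 differed by 0.91 from week 10 to 15 and by 0.94 from week 15 to 19 without 3 week 10 arrays. Those arrays carried hair keratin signal and are described below. Within day 1, Dcaf12l1 differed by 1.25 from week 15 to 19 and by 1.11 from week 19 to 22. Its week 15 and week 19 values there were below background.

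**Figure D3:**
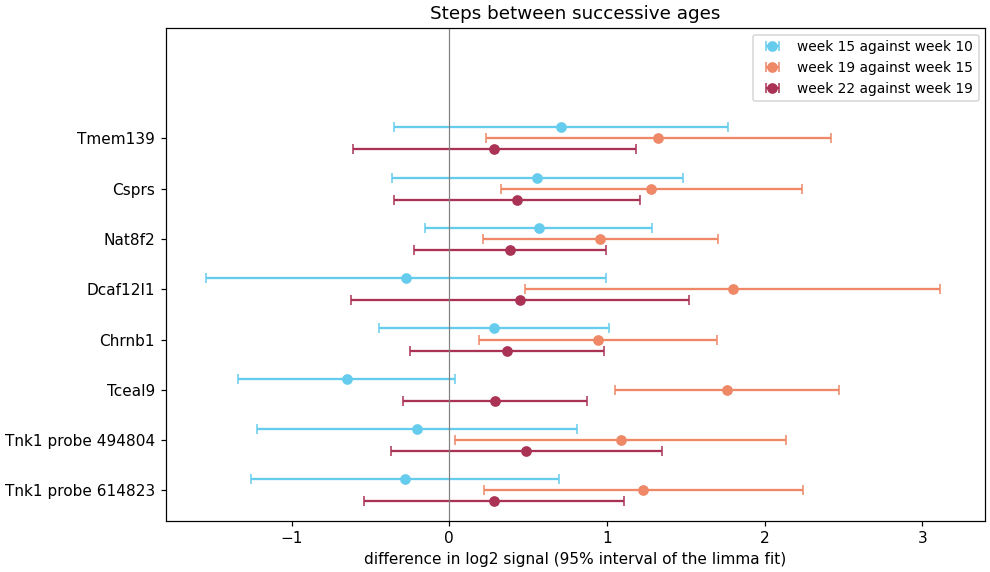
Difference in log2 signal between successive ages (horizontal axis) for each probe, with the 95% interval of the limma fit over 15 arrays. The middle point of each probe, week 19 against week 15, lies farthest to the right, between 0.94 and 1.80, and the intervals of the other 2 steps all hold 0.

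The step between weeks 10 and 15 lies within the early ages, whose arrays also served to choose the genes. There, 0 of the 8 probes passed the limma test (adjusted p from 0.443 to 0.869), where 7 of 20867 probes or 0.0335% passed. That count over all probes was 943 without week 15 replicate 2 and 47 without week 10 replicate 3, and still 0 of the 8 probes passed. At an unadjusted p under 0.05 the count was also 0 of 8, against 11.6% of all probes. Both week 15 arrays lay above all week 10 arrays for 1 probe, that of Nat8f2, with all 7 values below background (7.11% of all probes), and below them for 0 (5.22%). The estimates went both ways, with the mean higher at week 15 for 4 of the 8 probes (54.8% of all probes). Tmem139, Nat8f2, Csprs and Chrnb1 differed by 0.71 ± 0.49, 0.57 ± 0.33, 0.56 ± 0.43 and 0.28 ± 0.34, and Dcaf12l1 by -0.27 ± 0.59. The Tnk1 probes differed by -0.21 ± 0.47 and -0.28 ± 0.45. The lowest estimate was that of Tceal9, -0.65 ± 0.32, with a 95% interval from -1.34 to 0.04 (limma adjusted p = 0.443). With 2 mice at week 15 the intervals were wide, from -1.54 for Dcaf12l1 to 1.77 for Tmem139 at their ends. For Tmem139, Csprs, Nat8f2 and Chrnb1 they held the estimate of the next step. For Dcaf12l1 and both Tnk1 probes they did not hold it but overlapped its interval, so a step of like size was not excluded there either. Simulated 2-fold changes rarely passed this test or that of week 22 against week 19, so a miss says little about steps of the sizes estimated here.

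Between weeks 19 and 22, a step within the late ages, 0 of the 8 probes passed (limma adjusted p from 0.833 to 0.922), and of all probes 0% passed. Over all probes 13 passed without week 19 replicate 3 and 72 without both week 22 arrays of array series 4, a run of array serial numbers described below; in both, 0 of the 8 passed. At an unadjusted p under 0.05 it was 0 of 8, against 7.32% of all probes. All 8 estimates were above 0, as were 54.5% of all probes, but they were small. They ranged from 0.28 ± 0.38 for Tnk1 probe 614823 to 0.49 ± 0.40 for Tnk1 probe 494804. No 95% interval reached below -0.62 or above 1.52. For 0 of the 8 probes did all week 22 arrays lie above all week 19 arrays, against 3.78% of all probes. The size of this step depends on the scaling: after median centring in place of quantile normalization, the median of the 8 probes was 0.55 and that of all probes was 0.19, against 0.38 and 0.04.

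Some animals held the lowest or the highest value of their age for most of the 8 probes, of which 2 read Tnk1. Week 10 replicate 3 had the lowest week 10 value for 7 of the 8 probes, all but Nat8f2, and was the lowest for 24% of all probes. Week 19 replicate 1 was the lowest of its age for 7 probes, all but Tnk1 probe 494804, against 29.5% of all probes, and week 19 replicate 3 the highest for 7, all but Dcaf12l1, against 31%. Week 22 replicate 4 was the highest of its age for 5 probes, against 26.7%. The highest week 10 values and the lowest week 22 values were spread, with no array holding more than 3 of the 8. At week 15, replicate 1 was below replicate 2 for 4 of the 8 probes, against 50.5%. Week 19 replicate 1 was the only week 19 array of scan day 1. Week 19 replicate 3 and week 22 replicate 4 had the highest median raw signals of their ages, 1473 and 1626. The part of scan day and of overall signal in this order was not tested.

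**Figure D4:**
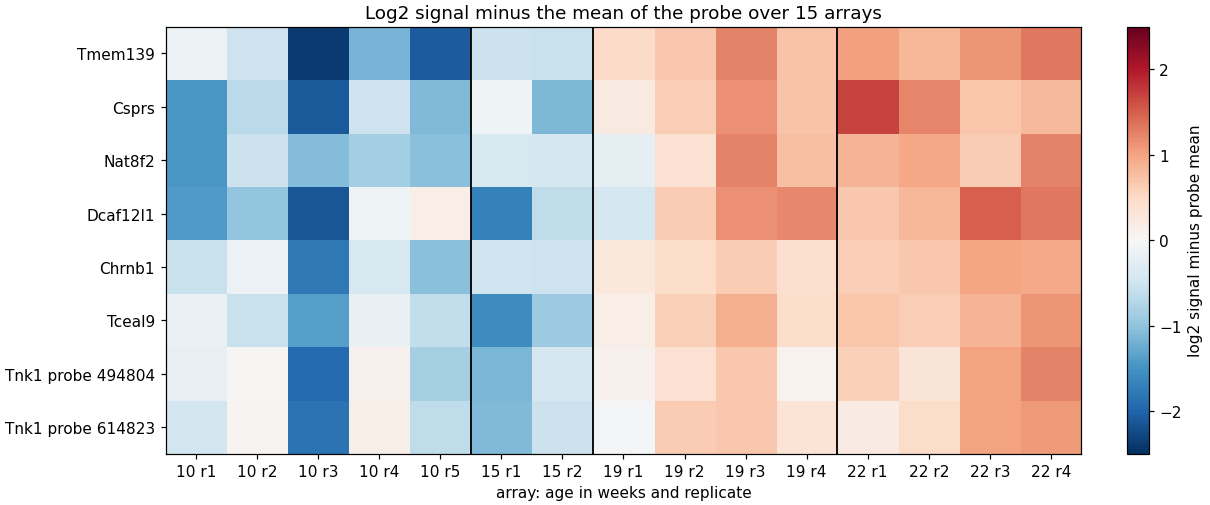
Log2 signal of each probe minus its mean over the 15 arrays (colour, blue below and red above the mean), with arrays as columns in order of age and replicate and black lines between ages. Week 10 replicate 3 (10 r3) is the bluest column and the late columns are mostly red.

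The week 10 arrays differed in hair follicle RNA. The inner root sheath keratin Krt25 stood at 18.74, 17.62 and 15.33 in week 10 replicates 1, 2 and 4 and was below background, at 8.32 and 8.06, in replicates 3 and 5. Of 9 hair and skin genes 2 could be named, Krt25 and Krt27, and their summed normalised signal ran from 358 to 922011 over the week 10 arrays, and from 605 to 2293 at week 19. For Tmem139, Chrnb1, Tceal9 and both Tnk1 probes, the 3 arrays with hair signal all lay above the other 2, which held for 13.1% of all probes. The opposite order held for 0 of the 8 probes and for 16.9% of all. Without the 3 arrays, the median difference between late and early glands was 1.71 in place of 1.51, and Tmem139 differed by 1.69 between weeks 10 and 15 (limma adjusted p = 0.19), more than the 1.33 between weeks 15 and 19. The part of skin RNA in the week 10 levels of these genes was not tested.

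Most named markers of other cells differed with age too. Of 14 leukocyte genes 3 could be named, Bcl2a1b, Lst1 and Tnfsf13, and their summed normalised signal ran from 30939 to 49150 at week 10 and from 39147 to 62773 at week 15. It ran from 106809 to 136278 at week 19 and from 100075 to 114302 at week 22. The summed signal of the 4 named milk protein genes of 7, Csn1s2a, Csn1s2b, Csn2 and Wap, was 2703 to 9190 at week 10. It was 3244 to 6639 at week 15, 22493 to 379806 at week 19 and 95150 to 523701 at week 22. That of 3 of 6 lymphoid chemokine genes, Ccl19, Ccl21a and Ccl21b, was 17019 to 45895 at week 10 and 45456.5 to 353928 at week 15. It was 493795 to 922264 at week 19 and 46537 to 368663 at week 22. Aoc3, 1 of 9 adipocyte genes and the only one named, was 645937 to 1434930 at week 10 and 1221749 to 1256616 at week 15. It was 142816 to 502012 at week 19 and 177116 to 578605 at week 22. The basal cell gene Lgals7, 1 of 7, was 12210 to 18636 at week 10 and 15682 to 22529 at week 22, and these ranges overlapped. Of 11 ERBB signalling, 10 luminal, 6 endothelial, 6 fibroblast, 8 nerve and 6 cell cycle genes 0 could be named. The part of these cells in the rise of the 7 genes was not tested.

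A few named genes recurred as the likest in course. Likeness was measured as the root mean square difference between 2 profiles over the 15 arrays, each centred on its own mean, among 200 other named genes. Tnfsf13, the gene of the B cell cytokine APRIL, was among the 3 likest for each of the 7 genes and was the likest for Chrnb1 (0.32), Tceal9 (0.35), Nat8f2 (0.44) and Tnk1 probe 614823 (0.44). For Csprs the likest was Bcl2a1b, an anti-apoptotic gene of leukocytes, at 0.40, against a median of 1.23 over all named probes. For Tmem139 it was Trim59, a tripartite motif gene, at 0.53. The epithelial keratin gene Krt23 was the likest for Dcaf12l1 (0.70) and Tnk1 probe 494804 (0.45) and the second for Tceal9 (0.39). Krt23 had its lowest mean at week 15, with 14.28 ± 1.11 (SD, n = 5) at week 10 and 13.05 ± 0.49 (SD, n = 2) at week 15, and stood at 15.61 ± 0.35 (SD, n = 4) at week 22. Tnfsf13 showed no such dip, at 13.87 ± 0.31 (SD, n = 5) at week 10, 14.03 ± 0.12 (SD, n = 2) at week 15 and 15.17 ± 0.22 (SD, n = 4) at week 22. Profiles on the same arrays share their RNA and their normalization. Only named genes were compared, and most probes could not be named. The 7 genes were chosen for a higher late signal, which favours named genes that are also higher in late glands. Tnfsf13, Bcl2a1b, Trim59 and Krt23 each had higher means at both late ages than at both early ages. Likeness is therefore a description, and a link to a cell type was not tested.

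Among the 7 genes, Chrnb1, Tnk1 and Tceal9 had the smallest root mean square differences. Chrnb1 differed from the Tnk1 probes by 0.29 and 0.29, Tceal9 from them by 0.33 and 0.32, and Chrnb1 from Tceal9 by 0.38. Tmem139 and Dcaf12l1 had the largest, at 0.85. The measure tends to be smaller for probes that vary less. The root mean square of a probe about its own mean was 0.77 to 0.82 for Chrnb1, Tnk1 and Tceal9. It was 0.88 for Nat8f2, 1.08 for Csprs, 1.13 for Dcaf12l1 and 1.15 for Tmem139. The part of this spread in the differences was not tested. With the mean of each age removed as well, Chrnb1 and the Tnk1 probes differed by 0.23 and 0.22, Chrnb1 and Tceal9 by 0.24, Tceal9 and the Tnk1 probes by 0.26 and 0.27, and the 2 Tnk1 probes by 0.17. Chrnb1 and Tnk1 lie near each other on mouse chromosome 11, with 9 annotated genes between them, and Tceal9 lies on X. The part of gene position in this likeness was not tested.

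Promoters are shown for Chrnb1, Tnk1 and Tceal9, which differed least by that measure, and for Tmem139, in which none of the searched motifs was found. They run from 250 bases before to 50 bases after the gene start in RefSeq, assembly GRCm38.p6, and 6 of the 7 genes, all but Csprs, had one in that table. Each is written 5′ to 3′ on the strand of its gene. Capitals mark every match on either strand to 7 short motifs. The core promoter motifs were the TATA box, searched as TATAAA, and the CCAAT box. GC boxes, which bind Sp factors, were searched as GGGCGG. E-boxes, which bind helix-loop-helix factors, were searched as CANNTG. AP-1 sites were searched as TGANTCA, and ETS sites were searched as CGGAAG. The interferon-stimulated response element was searched by its core. Neighbouring capitals can belong to overlapping matches. The Chrnb1 promoter lies at chr11:69795888-69796187 on the minus strand, that of Tnk1 at chr11:69858681-69858980 on the minus strand, that of Tceal9 at chrX:136244830-136245129 on the plus strand and that of Tmem139 at chr6:42261720-42262019 on the plus strand.
Chrnb1: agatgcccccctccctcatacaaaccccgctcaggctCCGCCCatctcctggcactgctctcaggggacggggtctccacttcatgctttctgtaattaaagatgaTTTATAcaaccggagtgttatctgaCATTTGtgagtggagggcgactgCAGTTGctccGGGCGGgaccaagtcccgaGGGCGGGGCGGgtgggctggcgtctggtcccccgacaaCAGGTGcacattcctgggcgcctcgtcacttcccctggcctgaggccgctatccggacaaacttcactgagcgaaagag
Tnk1: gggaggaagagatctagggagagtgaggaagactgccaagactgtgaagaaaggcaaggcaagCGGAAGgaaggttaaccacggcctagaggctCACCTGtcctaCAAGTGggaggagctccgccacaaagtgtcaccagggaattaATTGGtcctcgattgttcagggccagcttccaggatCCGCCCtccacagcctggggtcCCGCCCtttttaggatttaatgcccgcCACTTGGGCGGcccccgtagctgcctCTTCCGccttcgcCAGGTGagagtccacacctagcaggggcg
Tceal9: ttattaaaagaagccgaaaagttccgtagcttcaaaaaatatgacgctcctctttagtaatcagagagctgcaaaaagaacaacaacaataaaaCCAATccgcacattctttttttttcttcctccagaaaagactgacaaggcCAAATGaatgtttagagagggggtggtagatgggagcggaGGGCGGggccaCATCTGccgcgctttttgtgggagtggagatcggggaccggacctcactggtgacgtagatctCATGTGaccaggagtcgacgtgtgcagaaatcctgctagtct
Tmem139: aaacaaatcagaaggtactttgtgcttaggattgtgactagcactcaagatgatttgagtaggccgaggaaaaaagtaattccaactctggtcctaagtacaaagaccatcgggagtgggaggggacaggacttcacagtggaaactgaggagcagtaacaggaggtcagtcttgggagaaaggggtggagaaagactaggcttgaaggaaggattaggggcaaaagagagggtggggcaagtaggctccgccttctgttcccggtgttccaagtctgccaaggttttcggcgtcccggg

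The GC box was matched 4 times in the Chrnb1 promoter, 3 times in that of Tnk1 and 1 time in that of Tceal9, and 35.7% of the 32851 promoters in the table hold it. The 2 Dcaf12l1 promoters in the table overlap and hold the same 3 matches, and those of Tmem139 and Nat8f2 hold 0. The 7 promoters counted here thus come from 6 genes. The E-box was matched 3 times in Chrnb1, 4 times in Tnk1 and 3 times in Tceal9, and 72.3% of all promoters hold it. A TATA box match was found in Chrnb1 alone among the 7 promoters of these genes (13.6% of all promoters), and a CCAAT box in Tnk1, Tceal9 and Nat8f2 (37.4%). The TATAAA match in Chrnb1 lies at -144 from the gene start and on the opposite strand, so it is a match of letters only. The ETS motif was matched 2 times in Tnk1 (16.9% of all promoters hold it). The AP-1 motif and the interferon-stimulated response element, which 7.81% and 3.44% of all promoters hold, were matched in 0 of the 7. Tmem139 held none of the 7 motifs. CpG pairs numbered 17 in Chrnb1, 12 in Tnk1, 13 in Tceal9 and 7 in Tmem139, against a median of 7. A match describes these letters only and no factor's binding was measured.

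The late-to-early differences were recomputed within scan days and within runs of array serial numbers, called array series 1 to 4. Scan day went in part with age, since 4 of the 5 week 10 arrays belonged to day 1 but only 1 array from each later age did. Within day 1 the 8 probes differed by 0.90 to 1.60 and within day 2 by 1.24 to 2.29. Within series 3 they differed by 0.64 to 2.39 and within series 4 by 1.46 to 2.35. The differences were least within series 3 for Tnk1 (0.64 and 0.72), Dcaf12l1 (0.84) and Tceal9 (0.98), where the early arrays were week 10 replicates 4 and 5. Dcaf12l1 had its highest week 10 values on those same 2 arrays. With scan day and with array series as a block, the median over the 8 probes was 1.38 and 1.60.

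**Figure D5:**
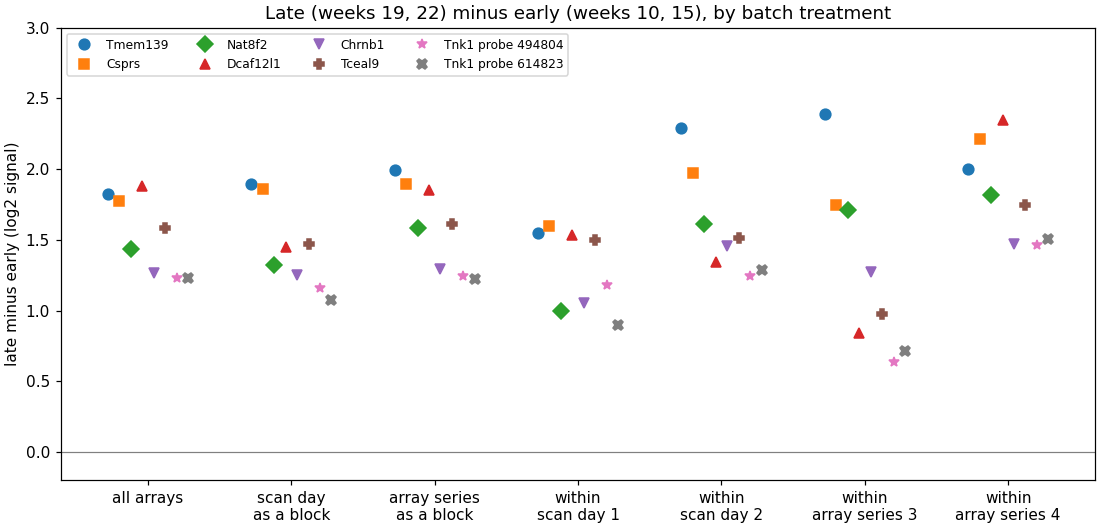
Late minus early difference in log2 signal (vertical axis) of each probe (symbols) over all arrays, with scan day or array series as a block, and within each scan day and array series 3 and 4. All points lie above 0, from 0.64 for Tnk1 probe 494804 within series 3 to 2.39 for Tmem139 within series 3.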

How the data were processed

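The members and the marker lists were chosen with earlier results of these data known. The 15 AB1700 mouse arrays were read as deposited: per the file headers, each file gives a linear signal intensity, a signal-to-noise ratio (a score) and a flag for each of 33012 gene probes. Per the labels' protocols, labelled cRNA was detected by chemiluminescence and the images were analysed by the array maker's protocol. Image software, background treatment and genome build were not stated in any label or header read here. The authors' deposited log2 value table served as an alternative; all its arrays share one distribution, it ranks probes as the signals do (Spearman 1.0 on each array), and its offset is not stated.

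Signals were quantile normalized between arrays and put on the log2 scale with limma 3.58.1 in R 4.3.3. Kept were probes whose signal-to-noise ratio reached 3 with a flag under 5000 on no fewer than 50% of the arrays of an age, 20867 in all. The age had 4 levels in 1 limma fit over the 15 arrays, with two-sided moderated tests and Benjamini-Hochberg adjustment over all kept probes at 0.05. The method was tested on simulated data, where it found most 4-fold changes in both tested steps but rarely a 2-fold one. Gene names came from RefSeq accessions in the files, which named 317 probes. Named here were the 7 genes, the 3 likest named genes of each, and listed markers. Replicate numbers follow accession order. Dates, called scan days here, and array serial numbers came from the file headers and served as batches. Whether they reflect processing batches was not stated.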

Additional observations from a re-analysis of the deposited data

How the results depend on the processing

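In 30 alternative settings, 15 of them leaving out 1 array, the 8 probes gave 920 values, of which 20 changed sign, 13 without a test moved by more than the SD between replicates in the fit, and 887 kept their sign and either moved by less than that SD or, where tested, still did not pass; 0 of these 20 concerned week 19 against week 15 or late against early. Some of the last still moved far, such as Chrnb1 between weeks 10 and 15, from 0.28 to 0.91 without the 3 arrays with hair keratin signal. Of 456 tests of the probes, 0 passed (smallest adjusted p = 0.179). Over all probes, the 7 calls between weeks 10 and 15 became 3 with values below background at a floor, 1 with the array series block, 327 within scan day 1, 0 within day 2, 0 within series 4, 3 with array weights, 0 without the 3 arrays with hair keratin signal, 1 without both week 22 arrays of series 4 (chosen after seeing the data), and 3 to 943 when 1 array was left out. The 0 calls between weeks 19 and 22 became 3 with median centring, 31 with the floor, 1 with scan day as a block, 8 within day 1, 21 with array weights, 72 without both week 22 arrays of series 4, and 0 to 13 when 1 array was left out. The 5 probes without overlap of late and early arrays became 4 with the floor, 7 within series 3 and without the hair keratin arrays, 8 within day 2, 8 within series 2 and 8 within series 4, which hold fewer arrays, and 5 to 7 when 1 array was left out. The median late minus early difference was then 1.42 to 1.60.

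These values changed sign, and the cause was not tested. Between weeks 10 and 15, Dcaf12l1 was 0.30 with the floor, 0.25 with array series as a block, 0.87 within series 4 and -0.80 to 0.25 when 1 array was left out. Tnk1 probe 614823 was 0.035 with array series as a block, 0.0803 within day 2, 0.20 within series 4 and 0.41 without the hair keratin arrays. Tnk1 probe 494804 was 0.41 within day 2, 0.30 within series 4, 0.61 without the hair keratin arrays and -0.57 to 0.15 when 1 array was left out. Csprs was -0.027 within day 2. Between weeks 19 and 22, within series 4 Tmem139 was -0.035, Csprs -0.38 and Nat8f2 -0.30, and Tmem139 was -6.748e-04 with array series as a block. Within series 3 Dcaf12l1 was -0.082 and Tnk1 probe 614823 -0.027, and without both week 22 arrays of series 4 that probe was -0.065. No paired analysis was possible because the labels give no replicate numbers and each mouse was sampled at 1 age. The signal over background limits Nat8f2 and Dcaf12l1 most, and the 2 week 15 mice limit both steps that use that age.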

Other observations

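Of the 9 annotated genes between Chrnb1 and Tnk1 on chromosome 11, 1 could be named on the array, Fgf11, a gene of the fibroblast growth factor family; it was looked up after the values of its neighbours were seen. Its mean log2 signal was 11.19 ± 0.29 (SD, n = 5) at week 10, 10.44 ± 0.09 (SD, n = 2) at week 15, 10.87 ± 0.54 (SD, n = 4) at week 19 and 10.80 ± 0.46 (SD, n = 4) at week 22. The ranges of weeks 19 and 22 both overlapped that of week 10, so Fgf11 did not show the separation of late from early glands seen for Chrnb1.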
